A study of Mus musculus with 10 samples.

Results

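The luminal and basal epithelial identity genes are 40 named genes whose transcripts mark the epithelial cells of the mammary gland, out of 46983 genes in the count files. The list names genes by symbol with no threshold on their values, though it was drawn up with earlier results of these data known, and all 40 symbols matched 1 Ensembl gene each. The list holds 4 luminal keratins, 4 basal keratins, 6 luminal lineage genes, 6 basal lineage genes, 8 regulators of the epithelial state, 8 junction and adhesion genes and 4 genes of a surface protease system and of membrane trafficking. They were measured by RNA-seq in the mammary fat pads of virgin female C57BL/6 mice killed on PND 130. CFA mice (n = 5) had eaten a semi-purified diet with 1 mg folic acid (FA) per kg and HFA mice (n = 5) the same kind of diet with 5 mg FA/kg, both for 4 weeks, followed in both groups by 4 weeks on a maintenance diet. Each library came from the right thoracic fat pads, so adipose tissue, muscle, skin appendages and lymph nodes of that site could be in the sample, and the labels give no cell sorting.

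The mammary epithelium is a branched duct of inner luminal cells, which face the lumen and can become milk-secreting, and outer basal cells, which contract and rest on the basement membrane. Each layer builds its own keratin filaments from paired type I and type II keratins: *Krt8* with *Krt18* in luminal cells, *Krt5* with *Krt14* in basal cells. In a virgin gland the ducts are a small part of a fat pad, and in RNA from whole tissue fewer epithelial cells and less RNA per epithelial cell cannot be told apart.

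Libraries are named by their titles, and values are listed in 1 order throughout: T1224, T1234, T1314, T1324 and T1334 for CFA, then T2214, T2224, T2234, T2314 and T2334 for HFA. Levels are CPM, read counts scaled to the library total and by TMM factors. The libraries held 7672199 to 14829291 reads on genes, and the lowest count of any member in any library was 15 reads (*Ovol1* in T2334). Errors are between mice. 3 libraries, T1234, T1334 and T2334, held high levels of B and T cell markers (mean log2 CPM of 4.99, 6.28 and 7.62, against 0.26 to 1.22 in the other 7), and T2334 also had the lowest median correlation with the other libraries (0.798, against 0.918 to 0.970) and the lowest summed level of 8 skeletal muscle genes (762 CPM, against 7491 to 58652). No library was a copy of another, since the lowest chi-square per gene between any 2 libraries was 13.7.

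All 7 role groups had their lowest summed level in T2334, and the summed CPM of the 40 members was 4938, 5156, 4048, 3869 and 1460 in the CFA libraries and 3574, 2627, 3282, 2799 and 914 in the HFA libraries. Members were thus lowest in T1334 and T2334, both high in lymphocyte markers, whereas T1234, the third such library, had the highest sum. The part of the lymphocyte transcripts in these low levels was not tested.

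**Figure D1:**
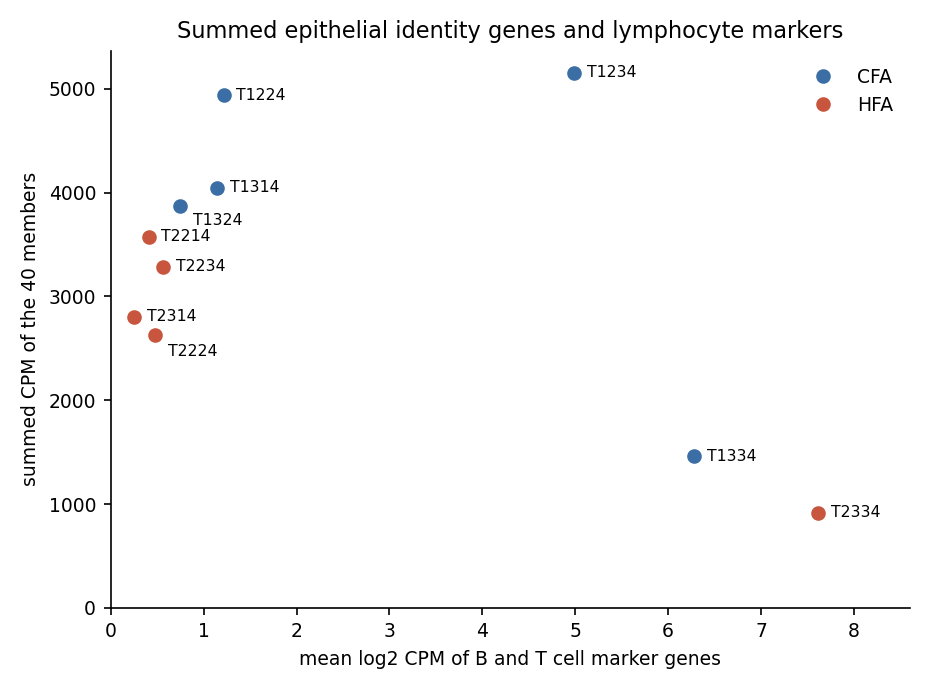
Each point is 1 library, coloured by diet. The x axis is the mean log2 CPM of B and T cell marker genes and the y axis the summed CPM of the 40 members. T1334 (1460 CPM) and T2334 (914 CPM) lie lowest, and the other CFA libraries (3869 to 5156 CPM) lie above the other HFA libraries (2627 to 3574 CPM).

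The reference sequences just before the transcription starts of 5 members are shown because the diet comparison turned on *Krt5* against its luminal neighbours *Krt8* and *Krt18* on the same chromosome, and because *Rab25* and *Spint2* hold a match to a motif of a member transcription factor. The sequences are the 250 bases upstream of the RefSeq start in GRCm38.p6, written 5′ to 3′ on the gene's strand. Capitals mark matches, on either strand, to AACCNGTT, a motif of grainyhead-like factors such as the member *Grhl2*, and to GCCNNNGGC, a motif of AP-2 factors such as the members *Tfap2b* and *Tfap2c*.
Krt5 (chr15:101712906-101713155, minus strand): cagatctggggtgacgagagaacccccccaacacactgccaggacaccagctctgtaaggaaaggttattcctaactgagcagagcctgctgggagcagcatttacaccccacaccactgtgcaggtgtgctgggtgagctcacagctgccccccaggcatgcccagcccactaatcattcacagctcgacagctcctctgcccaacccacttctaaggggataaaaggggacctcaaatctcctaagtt
Krt8 (chr15:102004343-102004592, minus strand): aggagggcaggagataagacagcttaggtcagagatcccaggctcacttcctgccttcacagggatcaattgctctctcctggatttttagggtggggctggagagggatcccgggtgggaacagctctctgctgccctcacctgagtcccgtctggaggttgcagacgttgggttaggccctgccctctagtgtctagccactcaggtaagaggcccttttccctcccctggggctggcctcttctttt
Krt18 (chr15:102027966-102028215, plus strand): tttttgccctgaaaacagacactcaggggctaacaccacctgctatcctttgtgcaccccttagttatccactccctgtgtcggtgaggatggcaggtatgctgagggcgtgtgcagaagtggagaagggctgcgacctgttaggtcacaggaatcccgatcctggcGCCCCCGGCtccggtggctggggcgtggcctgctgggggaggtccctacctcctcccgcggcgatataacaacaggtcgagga
Rab25 (chr3:88548280-88548529, minus strand): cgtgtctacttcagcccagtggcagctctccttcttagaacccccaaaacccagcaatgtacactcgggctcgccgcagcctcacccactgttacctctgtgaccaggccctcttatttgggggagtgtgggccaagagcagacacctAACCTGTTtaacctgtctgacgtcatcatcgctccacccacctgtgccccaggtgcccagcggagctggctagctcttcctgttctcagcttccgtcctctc
Spint2 (chr7:29281978-29282227, minus strand): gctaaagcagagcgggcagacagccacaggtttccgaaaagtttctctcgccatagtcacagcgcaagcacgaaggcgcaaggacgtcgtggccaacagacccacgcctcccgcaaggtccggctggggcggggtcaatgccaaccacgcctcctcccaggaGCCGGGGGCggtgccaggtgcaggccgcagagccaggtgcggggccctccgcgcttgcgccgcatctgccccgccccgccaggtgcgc
RefSeq promoters were at hand for 23 of the 40 members. These members have 28 windows, since some have several starts. The AP-2 motif stood in 9 of the 28 windows, those of *Cited1*, *Dsp*, *Gata3*, *Kit*, *Krt18*, *Krt7*, *Spint1* and *Spint2*, and in 13.7% of 32851 promoter windows of all genes. The *Kit* windows overlap almost wholly and hold the same match, which is counted in each. The 9 windows were 60.4% to 72.8% G or C, and the share over all windows was not matched for this. *Rab25* alone held AACCNGTT, which 1.79% of all windows held, and no member window held the full palindrome AACCGGTT, itself a case of the former motif, found in 0.116% of all windows. These are matches of letters in a short window and not measured binding sites.

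Across the members, none differed between diets past the adjusted threshold (edgeR quasi-likelihood test, adjusted p below 0.05, 15610 genes tested), and percent called over all genes was 0% as well. At an unadjusted p below 0.05, 9 of 40 members were lower in HFA and 0 higher, whereas 3.49% of all genes tested were lower at that level. The log2 fold change was below 0 for 37 of 40 members, against 6238 of the 15610 genes tested. Its median over the members was -0.76, while the median of all genes was 0.06. The smallest adjusted p among the members was 0.655. By the other tools, the likelihood ratio test, DESeq2 and limma voom also called 0 members. Those fits called 0.211%, 0.384% and 0% of all genes. With quality weights, limma voom called 2 members (*Spint2* and *St14*), in a fit that called 6.64% of all genes. In every one of the 40 members the CFA and HFA libraries overlapped; over all genes 0.243% had all HFA libraries below all CFA libraries.

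**Figure D2:**
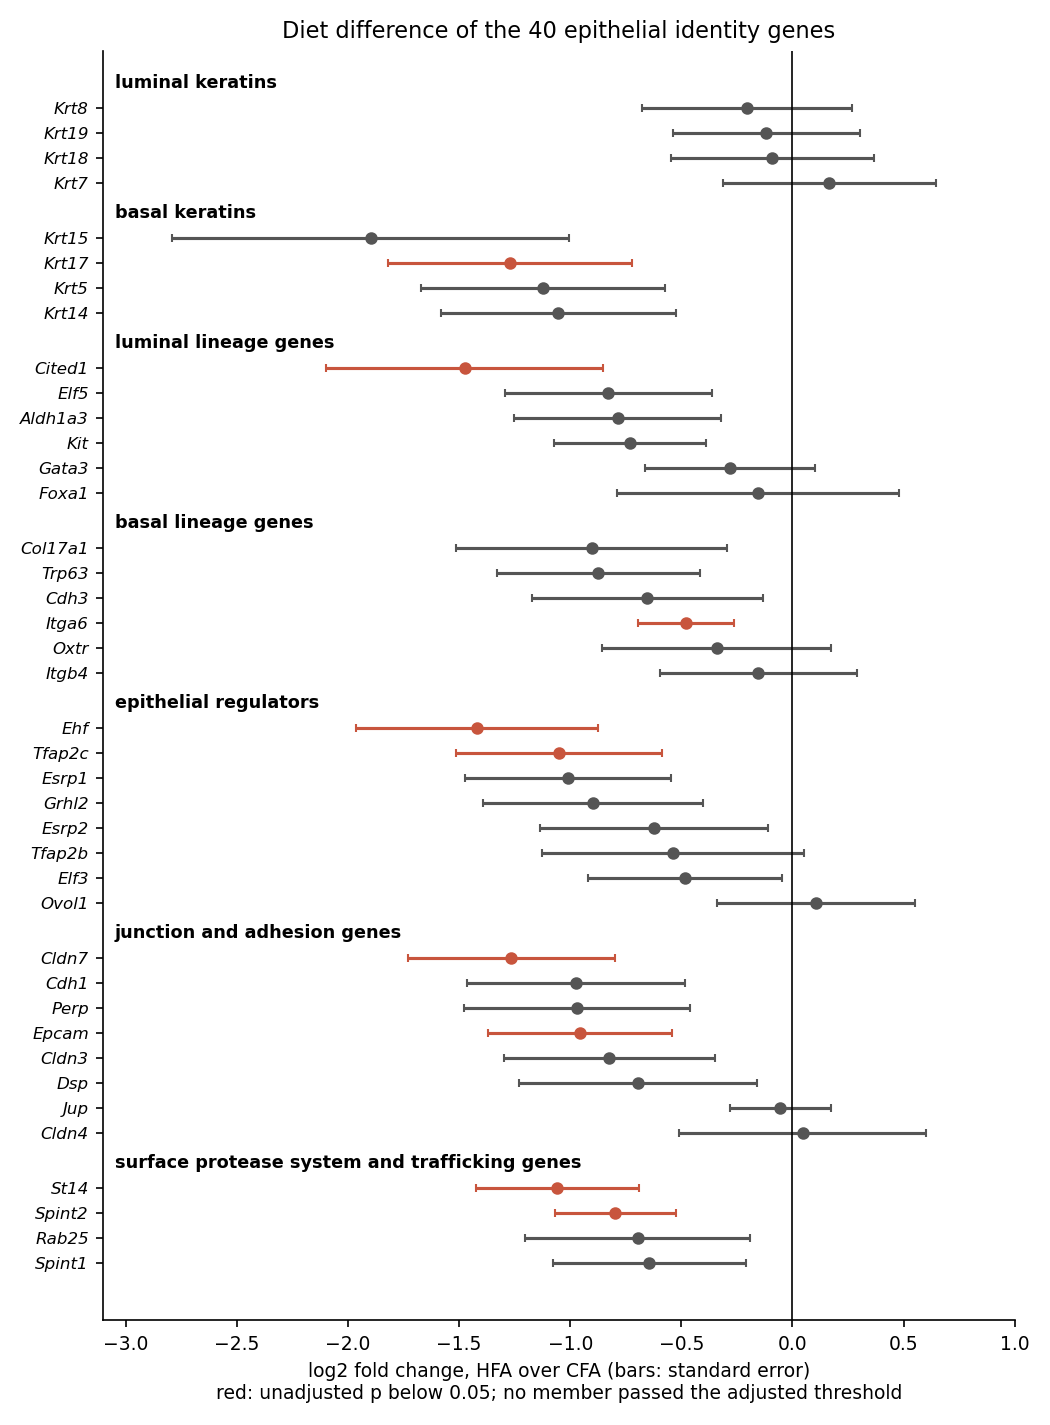
Points are log2 fold changes of HFA over CFA with standard errors for the 40 members, grouped by role (edgeR quasi-likelihood fit, n = 5 per diet). The 4 luminal keratins lie between -0.20 and 0.17, basal keratins lie between -1.90 and -1.05, and red points are the 9 members with an unadjusted p below 0.05.

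The luminal keratins form the filaments of ductal luminal cells, and 3 of the 4 were the most abundant members per kilobase of exon. *Krt18* had the highest mean level of all members (194 CPM per kb), followed by *Krt19* (151 CPM per kb) and *Krt8* (102 CPM per kb). *Krt8* was at 263, 349, 184, 207 and 63.4 CPM in the CFA libraries and at 312, 198, 201, 157 and 57.3 CPM in the HFA libraries. *Krt18*, its filament partner, was at 281, 473, 256, 329 and 98.7 CPM in CFA and at 406, 224, 312, 330 and 78.3 CPM in HFA. *Krt19*, the smallest keratin, was at 362, 438, 197, 328 and 137 CPM in CFA and at 390, 251, 375, 249 and 82.5 CPM in HFA. In all 3 genes the ranges of the diets overlapped widely, and T1334 and T2334 were the lowest libraries of their diets. The log2 fold changes were -0.20 ± 0.47 for *Krt8*, -0.09 ± 0.46 for *Krt18* and -0.12 ± 0.42 for *Krt19* (SE). *Krt7*, the type II keratin of simple ducts, ranged from 27.4 to 126 CPM in CFA and from 22.6 to 153 CPM in HFA (log2 fold change 0.17 ± 0.48). The 4 adjusted p-values lay between 0.929 and 0.967, and the standard errors leave differences of up to about 1 log2 unit in either direction within the spread between mice. About 23.5% of the 75-base windows of the *Krt8* transcript also stand in transcripts of other genes, mainly its pseudogene *Krt8-ps*, and *Krt18* is not so affected.

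The basal keratins form the filaments of the outer, contractile layer, and all 4 had lower means in HFA. *Krt5* was at 214, 196, 168, 142 and 44.5 CPM in CFA and at 88.2, 76.3, 101, 75.7 and 10.1 CPM in HFA. *Krt14* was at 150, 115, 116, 83.3 and 28.3 CPM in CFA and at 69.0, 53.8, 62.4, 43.9 and 8.78 CPM in HFA. In both genes every HFA library lay below the 4 highest CFA libraries, and the overlap came from T1334 alone. The log2 fold change was -1.12 ± 0.55 for *Krt5* (adjusted p = 0.678, edgeR quasi-likelihood test) and -1.05 ± 0.53 for *Krt14* (adjusted p = 0.681, edgeR quasi-likelihood test). *Krt17*, a keratin of basal and appendage cells, ranged from 21.2 to 108 CPM in CFA and from 5.47 to 39.3 CPM in HFA (log2 fold change -1.27 ± 0.55, adjusted p = 0.669). *Krt15*, known from basal and progenitor cells, ranged from 11.9 to 86.0 CPM in CFA and from 1.92 to 37.7 CPM in HFA, with the lowest log2 fold change of the members, -1.90 ± 0.89 (adjusted p = 0.678). HFA library T2234 held hair follicle keratins not seen at such levels elsewhere, with *Krt71* at 95.9 CPM against at most 1.03 CPM in the other 9 libraries. T2234 had the highest *Krt5*, *Krt15* and *Krt17* levels of the HFA group, and without it the log2 fold changes were -1.53 for *Krt17* and -2.82 for *Krt15*, the lowest that leaving out any library gave. The part of the hair follicle transcripts in the basal keratin levels was not tested.

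**Figure D3:**
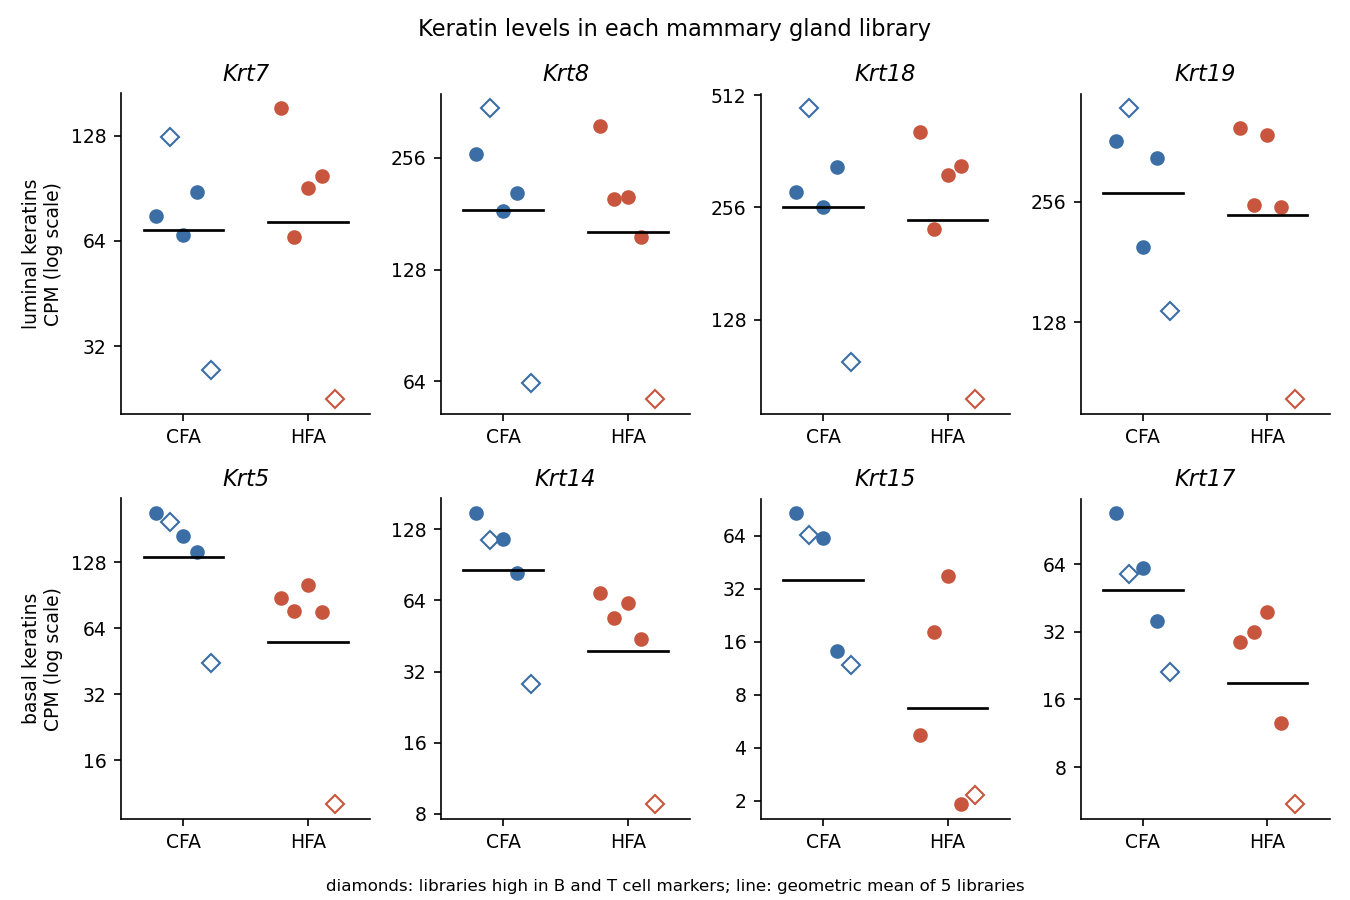
Each point is 1 library, with CPM on a log axis, and the lines are geometric means of 5 libraries per diet. The upper row holds the 4 luminal keratins, where the diets span the same range. The lower row holds the 4 basal keratins, where the HFA means lie lower and the diets overlap in each gene. Open diamonds are the 3 libraries high in B and T cell markers.

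Luminal lineage genes set the fate of luminal cells. *Elf5*, the regulator of the alveolar, hormone receptor negative branch, was at 91.7, 76.9, 68.2, 42.6 and 19.3 CPM in CFA and at 28.3, 35.0, 62.2, 31.2 and 11.8 CPM in HFA. *Foxa1*, a pioneer factor of the hormone-sensing branch, was at 46.3, 93.8, 53.3, 119 and 20.7 CPM in CFA and at 62.2, 31.7, 92.2, 106 and 7.51 CPM in HFA. The diets overlapped in both, with log2 fold changes of -0.83 ± 0.47 for *Elf5* and -0.15 ± 0.64 for *Foxa1*. *Cited1*, a transcriptional coregulator of hormone-responsive ductal cells, was at 39.1, 87.5, 30.0, 69.7 and 13.0 CPM in CFA and at 10.7, 9.83, 23.7, 37.6 and 4.39 CPM in HFA. Its log2 fold change of -1.47 ± 0.62 was the largest of the lineage genes in size (adjusted p = 0.662, edgeR quasi-likelihood test). *Kit*, a receptor tyrosine kinase of luminal progenitors, ranged from 79.3 to 284 CPM in CFA and from 57.6 to 155 CPM in HFA (-0.73 ± 0.34 as a log2 fold change). Mast cells carry *Kit* too, and the summed CPM of 7 mast cell markers ranged from 82.1 to 181 in CFA and from 27.1 to 272 in HFA. The part of mast cells in the *Kit* level was not tested. *Aldh1a3*, an aldehyde dehydrogenase of luminal progenitors, had a log2 fold change of -0.79 ± 0.47, and *Gata3*, the luminal master regulator that T cells also express, one of -0.28 ± 0.38.

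Basal lineage genes tie the outer layer to the basement membrane and to oxytocin. *Trp63*, the regulator of basal identity, was at 74.9, 59.5, 58.8, 43.6 and 17.7 CPM in CFA and at 38.3, 32.2, 31.6, 30.0 and 6.87 CPM in HFA. As with the basal keratins, all HFA libraries lay below the 4 highest CFA libraries (log2 fold change -0.87 ± 0.46, adjusted p = 0.688). *Itga6*, the laminin-binding integrin chain, was at 206, 165, 217, 188 and 116 CPM in CFA and at 148, 127, 171, 106 and 88.9 CPM in HFA. With -0.48 ± 0.22 it had the smallest standard error of the members (adjusted p = 0.670, edgeR quasi-likelihood test), and endothelial and other cells carry it as well. *Oxtr*, the oxytocin receptor of contracting basal cells, was at 332, 214, 346, 303 and 139 CPM in CFA and at 422, 356, 94.2, 114 and 66.5 CPM in HFA. Its HFA libraries were both the highest and the lowest of all 10 (log2 fold change -0.34 ± 0.52). *Itgb4*, the hemidesmosomal partner of *Itga6*, had a log2 fold change of -0.15 ± 0.44, the smallest in size of the basal genes, against -0.90 ± 0.61 for the hemidesmosomal collagen *Col17a1* and -0.65 ± 0.52 for P-cadherin (*Cdh3*).

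Regulators of the epithelial state include transcription factors and splicing factors that both layers use. *Ehf*, an Ets factor of epithelia, was at 280, 267, 254, 104 and 39.3 CPM in CFA and at 59.5, 77.6, 136, 51.1 and 30.0 CPM in HFA. Its first 3 CFA libraries stood well above every HFA library, and T1324 and T1334 fell within the HFA range (log2 fold change -1.42 ± 0.54, adjusted p = 0.655, edgeR quasi-likelihood test). *Grhl2*, a grainyhead-like activator of junction genes, was at 33.6, 33.3, 33.9, 23.3 and 7.69 CPM in CFA and at 18.4, 13.2, 20.1, 16.1 and 3.18 CPM in HFA. *Tfap2b*, an AP-2 factor, was at 57.5, 71.1, 54.0, 82.9 and 19.0 CPM in CFA and at 42.0, 21.9, 71.4, 56.0 and 5.09 CPM in HFA. The groups lay further apart in *Grhl2* (-0.90 ± 0.49) than in *Tfap2b* (-0.54 ± 0.59), and neither passed the threshold. *Tfap2c*, the other AP-2 member, had means of 34.0 ± 12.5 CPM in CFA and 16.4 ± 8.01 CPM in HFA (SD, n = 5; log2 fold change -1.05 ± 0.46). *Esrp1* and *Esrp2*, which direct epithelial splicing, had log2 fold changes of -1.01 ± 0.46 and -0.62 ± 0.51, and the Ets factor *Elf3* one of -0.48 ± 0.44. *Ovol1*, a repressor that restrains mesenchymal genes, was the rarest member per kilobase (1.61 CPM per kb) and had a log2 fold change of 0.10 ± 0.45, though 18.2% of its transcript windows also stand in other genes, mainly the antisense pseudogene *Gm31166*.

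Junction and adhesion genes hold epithelial cells together. *Epcam*, the epithelial cell adhesion molecule, was at 279, 350, 231, 223 and 76.0 CPM in CFA and at 159, 98.8, 134, 159 and 46.7 CPM in HFA. *Cdh1*, E-cadherin of the adherens junction, was at 226, 263, 241, 181 and 53.1 CPM in CFA and at 118, 79.9, 133, 136 and 24.7 CPM in HFA. In both, T1334 was the only CFA library within the HFA range. The log2 fold changes were -0.96 ± 0.41 for *Epcam* (adjusted p = 0.667, edgeR quasi-likelihood test) and -0.97 ± 0.49 for *Cdh1*. The claudins, which seal tight junctions, did not share 1 value: *Cldn7* was at 40.5, 54.6, 27.7, 28.3 and 11.3 CPM in CFA and at 16.6, 11.0, 18.0, 18.2 and 3.95 CPM in HFA (log2 fold change -1.27 ± 0.47, adjusted p = 0.655, edgeR quasi-likelihood test). *Cldn4* was at 51.3, 103, 48.8, 66.5 and 17.2 CPM in CFA and at 69.1, 36.7, 98.8, 80.1 and 11.4 CPM in HFA, and its log2 fold change of 0.05 ± 0.56 changed sign under 8 of 15 alternatives to the test, scaling, filter, model or subset. *Cldn3*, whose gene lies 39.3 kb from *Cldn4* on chromosome 5, had a log2 fold change of -0.82 ± 0.47. *Perp* and *Dsp*, both of desmosomes, had log2 fold changes of -0.97 ± 0.51 and -0.70 ± 0.54, whereas *Jup*, plakoglobin of desmosomes and adherens junctions and present in heart and muscle as well, had one of -0.05 ± 0.23.

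The surface protease system consists of the membrane protease matriptase (*St14*) and its 2 Kunitz inhibitors, and it held the members with the 2 smallest p-values. *Spint2*, an inhibitor, was at 121, 158, 102, 87.9 and 55.7 CPM in CFA and at 67.0, 38.0, 58.6, 78.6 and 59.7 CPM in HFA. *St14* was at 108, 128, 74.2, 62.2 and 25.3 CPM in CFA and at 44.0, 35.4, 38.2, 47.7 and 25.8 CPM in HFA. In both genes the lowest CFA value came from T1334, and without that library all CFA values lay above all HFA values. The log2 fold changes were -0.80 ± 0.27 for *Spint2* (adjusted p = 0.655) and -1.06 ± 0.37 for *St14* (adjusted p = 0.655, both by edgeR's quasi-likelihood test). *Spint2* was lowest in T2224 and not in T2334, where the sum of all members was lowest. *Rab25*, a small GTPase of apical recycling, was at 25.1, 29.4, 22.1, 22.5 and 6.27 CPM in CFA and at 15.6, 9.40, 21.9, 15.5 and 2.93 CPM in HFA (log2 fold change -0.70 ± 0.51). *Spint1*, the other inhibitor, had a log2 fold change of -0.64 ± 0.43.

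A ratio of 2 members within 1 library is free of the scaling between libraries, apart from the pseudocount. 4 ratios were compared between diets by a two-sided exact permutation test of log2 values with a pseudocount of 0.5 CPM, over every assignment of 5 of the 10 libraries to HFA, with adjustment over the 4. The ratio of *Krt5* to *Krt8* was 0.815, 0.562, 0.914, 0.687 and 0.704 in CFA and 0.284, 0.387, 0.504, 0.484 and 0.184 in HFA. The ratio of *Krt14* to *Krt18* was 0.536, 0.244, 0.454, 0.254 and 0.290 in CFA and 0.171, 0.242, 0.202, 0.134 and 0.118 in HFA. Both ratios were lower in each of the 5 HFA libraries than in any CFA library. The nearest libraries were T1234 at 0.562 and T2234 at 0.504 for *Krt5* to *Krt8*, and T1234 at 0.244 and T2224 at 0.242 for *Krt14* to *Krt18*, which almost touched. The mean ratio was 2.10-fold lower in HFA for *Krt5* to *Krt8* (log2 difference -1.07, exact permutation p = 0.00794, adjusted p = 0.0159) and 2.01-fold lower for *Krt14* to *Krt18* (log2 difference -1.01, exact permutation p = 0.00794, adjusted p = 0.0159). This p is the smallest that 5 against 5 libraries can give.

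**Figure D4:**
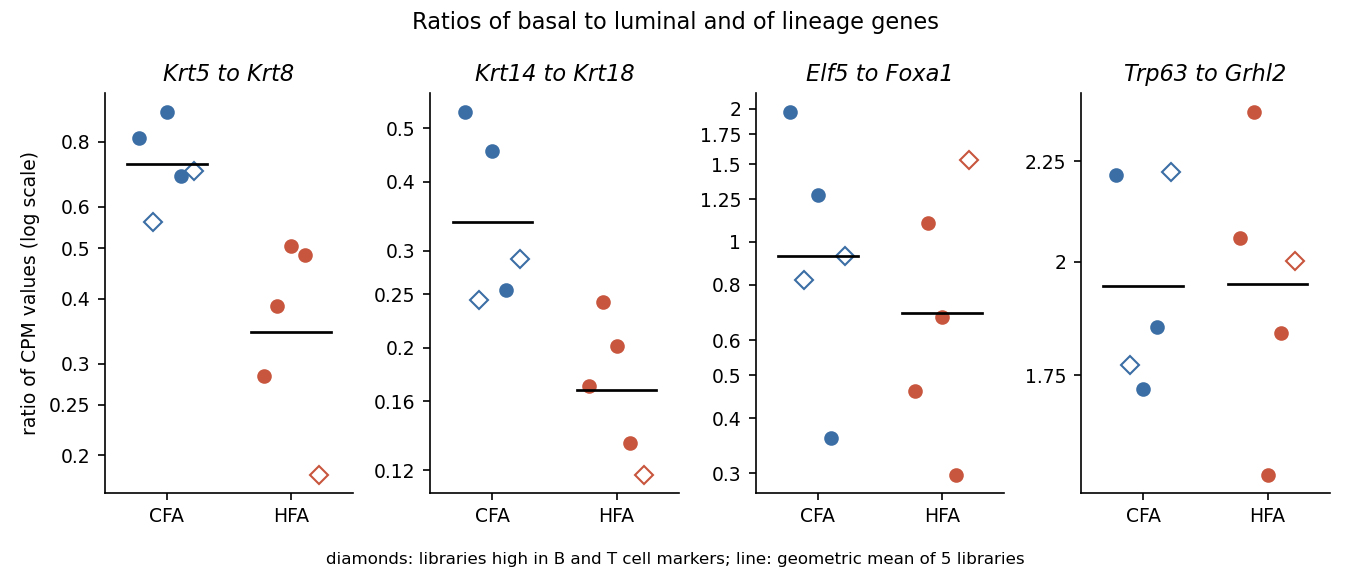
Points are ratios of CPM values in each library on a log axis, with lines at the geometric mean of each diet (n = 5). All HFA libraries lie below all CFA libraries for *Krt5* to *Krt8* and *Krt14* to *Krt18*. The diets overlap for *Elf5* to *Foxa1* and *Trp63* to *Grhl2*.

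The keratin ratios kept their direction within each value of the second title digit, which divides both diets and whose meaning is not given. The log2 difference was -0.83 among libraries with digit 2 and -1.35 among those with digit 3 for *Krt5* to *Krt8*, and -0.83 and -1.36 for *Krt14* to *Krt18*. A single digit, with 2 against 3 libraries, allows no exact permutation p below 0.10. With diets permuted within digits over 100 assignments, the mean difference was -1.09 for *Krt5* to *Krt8* and -1.10 for *Krt14* to *Krt18* (both with an exact permutation p of 0.01, the smallest this design gives, and adjusted p = 0.02), an alternative added after the values had been seen. Without T2334, the library that stood apart, the call of *Krt14* to *Krt18* was lost (log2 difference -0.88, adjusted p = 0.0635, exact permutation test), and that of *Krt5* to *Krt8* was not (-0.84, adjusted p = 0.0317, exact permutation test). Without T2234, the library with hair follicle keratins, the log2 differences were -1.21 and -1.08. With *Krt18* in place of *Krt8* under *Krt5* the difference was -1.15 (adjusted p = 0.0159, exact permutation test). Without the 3 libraries high in lymphocyte markers it was -0.98 for *Krt5* to *Krt8* and -1.11 for *Krt14* to *Krt18*, where 3 against 4 libraries allow no exact permutation p below 0.0286 (adjusted p = 0.0571 for both). The other 2 ratios overlapped between diets. That of *Elf5* to *Foxa1*, alveolar against hormone-sensing, was 1.97, 0.821, 1.28, 0.361 and 0.930 in CFA and 0.460, 1.10, 0.676, 0.298 and 1.53 in HFA (log2 difference -0.43, adjusted p = 0.614, exact permutation test). That of *Trp63* to *Grhl2* stayed between 1.56 and 2.39 in all 10 libraries (log2 difference 0.003, adjusted p = 0.976, exact permutation test).

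Each member was also set against the sum of *Krt8* and *Krt18* in its own library, as a description chosen after the values had been seen. 9 of the other 38 members had all HFA libraries below all CFA libraries on this scale, and 0 had them above, whereas 0.404% of all genes lay below and 0.0448% above. The 9 were *Krt5*, *Krt14*, *Grhl2*, *Tfap2c*, *Esrp1*, *Epcam*, *Cldn3*, *Cldn7* and *Cdh1*, and they came from basal keratins, regulators and junction genes but not from the lineage groups or the protease system. In those last groups some members missed through 1 HFA library. *Trp63* (mean log2 difference -0.76) overlapped through T2224 at 0.077 against T1234 at 0.073. *St14* (-0.74) overlapped through T2334 at 0.194, against a CFA minimum of 0.117. *Epcam*, higher in luminal than in basal cells of the gland, stood at 0.417 to 0.525 of the luminal keratin sum in CFA and at 0.222 to 0.348 in HFA. *Cdh1* stood at 0.321 to 0.549 in CFA and at 0.165 to 0.281 in HFA. *Cldn7* stood at 0.0538 to 0.0755 in CFA and at 0.0238 to 0.0384 in HFA. *Krt7* (0.140 to 0.172 in CFA, 0.157 to 0.214 in HFA), *Krt19*, *Gata3*, *Foxa1*, *Cldn4*, *Jup* and *Ovol1* overlapped, with mean log2 differences between -0.24 and 0.23. Overlap did not mean a difference near 0: of the 29 overlapping members 25 had a mean below 0, the lowest being *Krt15* (-2.13), *Cited1* (-1.37), *Krt17* (-1.19) and *Ehf* (-1.12). The count of 9 was between 9 and 11 when any 1 library was left out, 8 with a pseudocount of 2 and 17 without the 3 libraries high in lymphocyte markers.

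**Figure D5:**
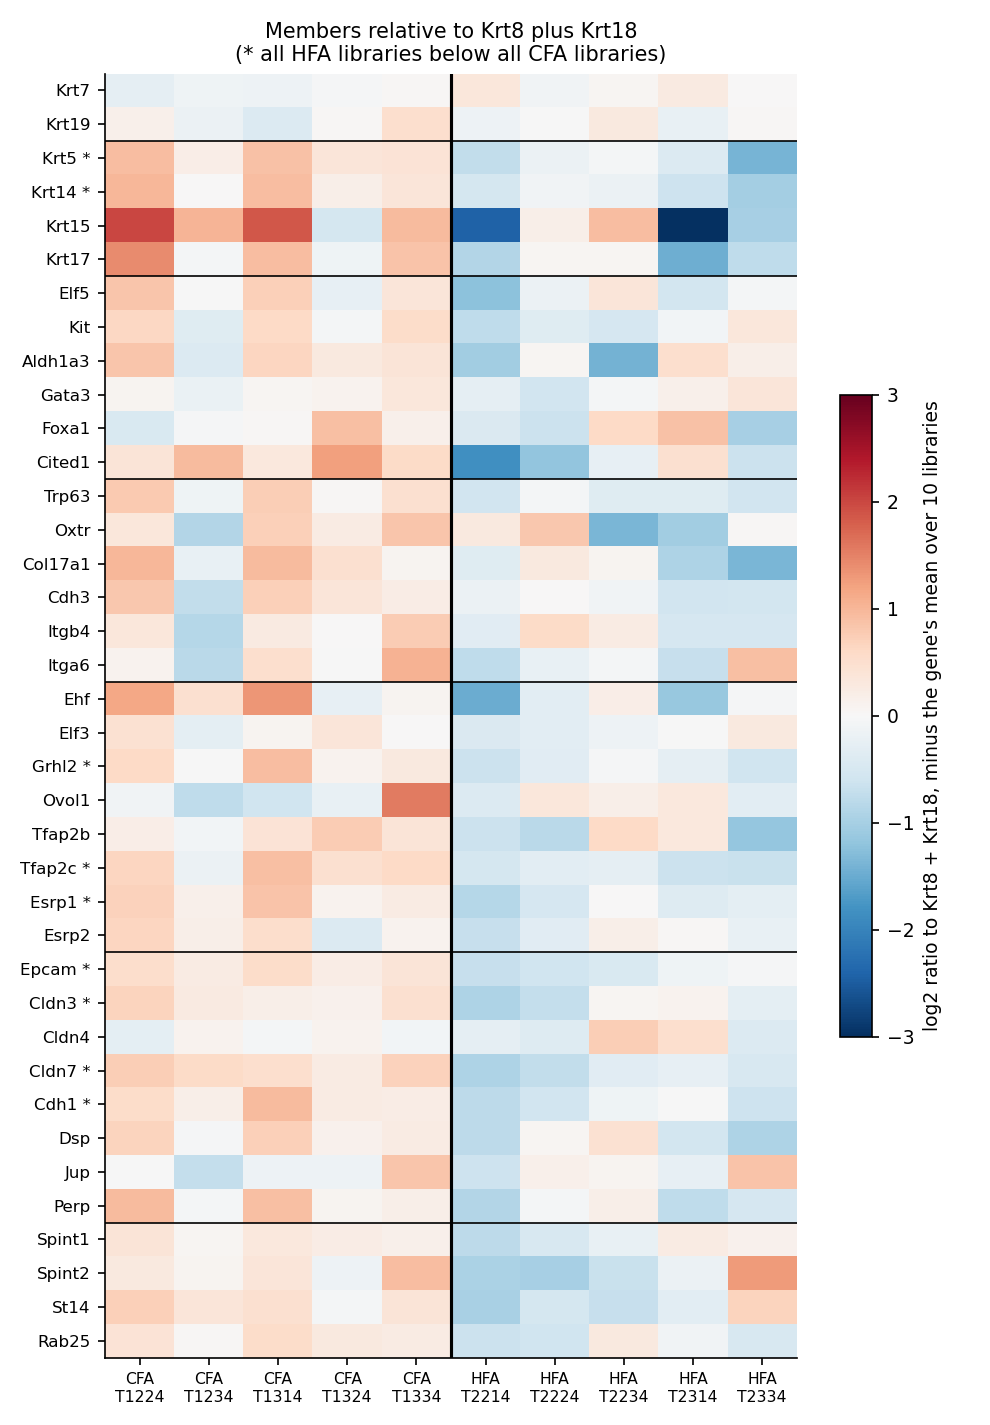
Rows are the 38 members other than *Krt8* and *Krt18*, columns the 10 libraries by diet. Colour is the log2 ratio to the sum of *Krt8* and *Krt18*, less the gene's mean over libraries. Asterisks mark the 9 members with all HFA libraries below all CFA libraries, and *Krt15* varied most.

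Of the pairs examined across the 10 libraries, both diets pooled, the basal pairs and *Epcam* with *Cdh1* followed each other most closely. 6 pairs were examined on log2(CPM + 0.5), with permutation p-values from 100000 resamples adjusted over the 6. Each r was also taken without the 2 libraries farthest from the median of the pair's first gene, which differed between pairs. The basal pair *Krt5* and *Krt14* had Pearson's r of 0.991 (adjusted p = 4.0e-05, Spearman's rho 0.976, adjusted p = 9.0e-05, permutation test), and r was 0.976 without T1224 and T2334. *Krt14* and *Trp63*, a regulator of basal keratins, had r of 0.996 (adjusted p = 3.0e-05, rho 0.976, adjusted p = 9.0e-05, permutation test), and 0.982 without T1334 and T2334. *Epcam* and *Cdh1* had r of 0.979 (adjusted p = 3.0e-05, rho 0.952, adjusted p = 2.4e-04, permutation test), and 0.971 without T1234 and T2334. The low library T1334 thus stayed in for this pair and for *Krt5* with *Krt14*. The luminal pair *Krt8* and *Krt18* had r of 0.949 (adjusted p = 0.00129, rho 0.770, adjusted p = 0.0150, permutation test), which was 0.665 (p = 0.0745, permutation test) without T1334 and T2334. For *Krt8* with *Epcam* r was 0.847 (adjusted p = 0.00260, rho 0.770, adjusted p = 0.0150, permutation test) and 0.506 without those 2 libraries (p = 0.198, permutation test). Across layers, *Krt18* and *Krt14* had r of 0.813 (adjusted p = 0.00592, permutation test) with rho of 0.455 (adjusted p = 0.188, permutation test), and r was 0.10 without T1334 and T2334. Pooled over the diets, r of *Krt8* with *Krt18*, of *Krt8* with *Epcam* and of *Krt18* with *Krt14* was thus lower without the 2 libraries lowest in epithelial transcripts. With values centred on the mean of each diet, r without these 2 libraries was 0.667, 0.562 and 0.026 in the same order. As a description over the 5 libraries of 1 diet, these 2 included, *Krt8* with *Epcam* had r of 0.994 in CFA and 0.879 in HFA, and *Krt18* with *Krt14* 0.838 and 0.950. No r is given within a value of the second title digit, which divides each diet further.

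Several members lie side by side in the genome, and differences between neighbours were not tested. The type I keratin genes *Krt15*, *Krt19*, *Krt14* and *Krt17* lie together on chromosome 11 between 100131758 and 100261029 (GRCm38). *Krt15* lies 4.88 kb from *Krt19*, and their log2 fold changes were -1.90 and -0.12. On chromosome 15 the type II genes *Krt7*, *Krt5* and *Krt8* lie beside the type I gene *Krt18* between 101411043 and 102032027, and again the basal member (*Krt5*) had the lowest value of the 4, while *Krt8* and *Krt18*, 23.7 kb apart, had -0.20 and -0.09. *Ehf* and *Elf5*, adjacent Ets factors on chromosome 2 with 108 kb between them, had -1.42 and -0.83, and *Cdh3* and *Cdh1*, 46.1 kb apart on chromosome 8, had -0.65 and -0.97, apart by about 1 standard error or less in both pairs.

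The number of members called depended on which libraries entered, whereas their median log2 fold change moved less. It was -0.76 in all libraries, -0.95 with digit 2, -0.92 with digit 3 and -0.78 without T1234, T1334 and T2334. Among the 5 libraries with second title digit 2 (2 CFA and 3 HFA), none of the HFA and 1 of the CFA high in lymphocyte markers, 18 of 40 members were lower in HFA past the adjusted threshold (edgeR quasi-likelihood test), against 4.11% of all genes lower in that fit. Those 18 were *Krt5*, *Krt14*, *Krt17*, *Kit*, *Cited1*, *Trp63*, *Ehf*, *Grhl2*, *Tfap2c*, *Esrp1*, *Epcam*, *Cldn3*, *Cldn7*, *Cdh1*, *Perp*, *Spint1*, *Spint2* and *St14*. Among the 5 libraries with digit 3, T1334 and T2334 included, 0 members passed, as did 0 of all genes tested. At an unadjusted p below 0.05, 4 members were lower (2.56% of all genes were). There all 40 log2 fold changes were below 0, against 7833 of the 16390 genes tested. The diet by digit interaction was past the adjusted threshold for 0 of the 40 members and at an unadjusted p below 0.05 for 1 (2.50%), against 8.46% of all genes, so that a difference between the subsets was not shown. Without T1234, T1334 and T2334, a choice made after the values had been seen, 26 members were lower at an unadjusted p below 0.05 (11.5% of all genes were) and 9 past the adjusted threshold (1.80% of all genes were lower at it). The 9 were *Krt5*, *Krt14*, *Trp63*, *Tfap2c*, *Esrp1*, *Epcam*, *Cldn7*, *Cdh1* and *St14*. In that subset the log2 fold changes of the basal keratins were -1.03 for *Krt5* and -1.03 for *Krt14*, close to those of all libraries, and of the luminal keratins 0.14 for *Krt18* and 0.10 for *Krt19*, on the other side of 0.

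Other epithelial genes outside the list gave like values: 24 of 29 tested were lower in HFA, 10 at an unadjusted p below 0.05 (edgeR quasi-likelihood test) and 0 past the adjusted threshold, with a median log2 fold change of -0.79. Of all 15610 genes tested, 6238 were lower, 545 of these at that unadjusted level, and 9372 were higher, 604 of these at it. The 2 other epithelial genes with the highest mean CPM lay on opposite sides of 0. *Cd24a*, a surface glycoprotein that immune cells also carry, had means of 213 ± 43.7 and 232 ± 56.1 CPM (SD, n = 5) and a log2 fold change of 0.12 ± 0.21, and *Muc15*, a membrane mucin, 147 ± 80.2 and 49.3 ± 20.5 CPM and -1.58 ± 0.49. Of 8 contractile genes that basal cells share with the muscle of vessels, 6 were lower and 1 of these (*Tagln*, -1.01 ± 0.40) had an unadjusted p below 0.05. Their most abundant genes, *Des* (0.82 ± 0.68) and *Acta2* (-0.71 ± 0.56), lay on opposite sides of 0, and *Des* is a filament of skeletal muscle too. Of 9 regulators and markers of mesenchymal transition 4 were higher and 5 lower, with *Vim* at 0.29 ± 0.16, *Fn1* at -0.30 ± 0.66 and 2 at an unadjusted p below 0.05, both higher (*Zeb1*, 0.33 ± 0.14, and *Cdh2*, 0.90 ± 0.28). Of 7 milk protein genes only *Csn3* was abundant enough to test (-0.58 ± 0.48), and *Glycam1*, also made by lymph node vessels, was at 275, 519 and 733 CPM in T1234, T1334 and T2334 and at most 1.22 CPM elsewhere. No gene of these 4 lists passed the adjusted threshold.

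Markers of other cell types in the fat pad also varied between libraries. Summed CPM ranged from 3.9 to 939 in CFA and from 4.57 to 2729 in HFA for 8 B cell genes, and from 22 to 571 and from 10.7 to 1395 for 9 T cell genes. It ranged from 7491 to 44439 and from 762 to 58652 for skeletal muscle, from 2097 to 8393 and from 808 to 7101 for fibroblasts, and from 10784 to 15802 and from 10192 to 18041 for adipocytes. Brown fat genes ranged from 49.6 to 551 in CFA and from 109 to 1673 in HFA, with 6 of 6 higher and 3 at an unadjusted p below 0.05 (edgeR quasi-likelihood test). Schwann cell genes had 5 of 6 higher and 3 at that level, mast cell genes 4 of 7 and 1, endothelial genes 6 of 7 and 0. Of all 15610 genes tested, 9372 were higher, 604 of these at that level. Of 5 mesothelial genes 2 were tested, and these went opposite ways. *Msln* lay below CFA in every HFA library, as 0.243% of all genes did (10.4 ± 10.9 and 0.208 ± 0.198 CPM, SD, n = 5, adjusted p = 0.577, edgeR quasi-likelihood test). *Lrrn4* was higher, with overlapping diets (log2 fold change 0.50 ± 0.30). The diets also overlapped in the sum of all 5 genes (CFA 4.48 to 28.3 CPM, HFA 2.36 to 6.95 CPM). Of 8 salivary gland genes only *Amy1* passed the filter (0.13 ± 0.16), and of 13 skin and hair follicle genes only 2, with the cornified layer genes *Lor* and *Flg* near 0. No marker gene passed the adjusted threshold, and the part of these cell types in the member values was not tested.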

How the data were processed

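RNA-seq count files of 10 mammary gland libraries were analysed, 5 CFA and 5 HFA by their treatment labels. The authors aligned paired reads to GRCm38 (mm10) with TopHat2 2.0.14 and Bowtie2 2.2.5 and deposited raw counts per gene of Ensembl release 83 made with HTSeq 0.6.1. The strand setting of the counting is not given in the sources used here, and up to 7.66% of a member's exon bases (*Itgb4*) overlap a counted gene on the opposite strand. HTSeq's 5 summary lines were left out of library sizes; reads with several alignments, 28.8% to 33.9% of the counted lines, are among them. Symbols and positions came from GENCODE M21.

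Counts were filtered with filterByExpr, scaled by TMM and tested with edgeR 4.0.16 (quasi-likelihood test, R 4.3.3), HFA against CFA, p-values of 15610 genes being adjusted by Benjamini and Hochberg and called below 0.05. The study's model also held cage, which the labels do not give. Standard errors are the log2 fold change over the root of F. Alternatives used limma 3.58.1, DESeq2 1.42.0, RLE or upper-quartile scaling, an open filter or one of CPM above 1 in 5 libraries, the second title digit or the B and T cell marker mean as a term, subsets by the digit, and each library left out. The fit was also run on simulated counts with independent noise in each gene. These hold no shared differences in cell content between libraries, so the run says nothing about such differences. Replicates are separate mice, and p-values measure the spread between them. Since cage is not given, mice that may have shared a cage were treated as independent in the fits and permutation tests.

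The members and gene lists were chosen with earlier results of these data known. All members are named. Values per library are given for the 2 members of each role with the highest CPM per kb, the 6 smallest p-values and members of ratios or pairs. Of other lists the 2 most abundant genes are named where they bear on a result, and genes named beyond these (such as *Tagln*, *Zeb1*, *Cdh2*, *Glycam1* and *Krt71*) were chosen after their values were seen.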

Additional observations from a re-analysis of the deposited data

Results flagged for a closer look

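Each group of 5 libraries was examined, for the 40 members and the 4 ratios, for a library whose gap to the nearest other exceeds 0.71 of the group's range. 5 of 88 groups met this. Chance flags about 1 in 20 groups of normal values. The members vary together across libraries, so the groups are not independent and the count cannot be set against that rate. In HFA library T2334, *Krt5* was at 10.1 CPM against 75.7 to 101 in the other 4, *Trp63* at 6.87 CPM against 30.0 to 38.3, and *Ovol1* at 0.955 CPM against 6.64 to 7.59. In CFA library T1334, *Tfap2c* was at 12.1 CPM against 36.5 to 42.6. In CFA library T1314, *Ovol1* was at 3.38 CPM against 5.64 to 6.18. T2334 and T1334 are the 2 libraries highest in B and T cell markers, and the part of those cells in the low values was not tested.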

How the results depend on the processing

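The count of members with a log2 fold change below 0 stayed within 32 to 40 in every alternative, and their median between -0.62 and -1.13. Genes called numbered 60 by DESeq2, 33 by the likelihood ratio test, 1037 with voom quality weights, 3 with the marker mean as a term, 1418 with digit 2 alone, 469 without the 3 libraries high in B and T cell markers and 0 to 6 with each library left out. Members called numbered 2 with quality weights, 18 with digit 2 alone and 9 without the 3 libraries. Members lower at an unadjusted p below 0.05 are given with the percent of all genes lower in the same fit. They numbered 15 by DESeq2 (4.34%), 14 by the likelihood ratio test (3.75%) and 21 with quality weights (14.2%). With the digit as a term they numbered 18 (5.17%), and with the marker mean as a term 30 (9.28%). With digit 2 alone they numbered 26 (14.1%), with digit 3 alone 4 (2.56%) and without the 3 libraries 26 (11.5%). With 1 library left out they numbered 3 (without T1234, 2.92%) to 22 (without T1334, 6.5%). The causes were not tested.

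Log2 fold changes turned sign for *Krt7* (marker mean -0.23, digit 3 -0.082), *Krt8* (quality weights 0.055), *Krt18* (quality weights 0.16, without the 3 libraries 0.14), *Krt19* (0.14 and 0.10 in the same 2), *Foxa1* (quality weights 0.021), *Jup* (quality weights 0.020), *Oxtr* (digit 2 0.11), *Itgb4* (digit 2 0.10), *Ovol1* (voom -0.28, digit term -0.024, marker mean -0.30, digit 3 -0.30) and *Cldn4* (upper quartile -0.00766, no filter -0.0126, voom -0.11, digit term -0.0643, marker mean -0.45, digit 2 -0.14, digit 3 -0.027). With each library left out the values ranged from -0.22 to 0.31 (*Cldn4*), -0.46 to 0.16 (*Foxa1*), -0.31 to 0.069 (*Itgb4*), -0.17 to 0.051 (*Jup*), -0.31 to 0.12 (*Krt18*), -0.30 to 0.072 (*Krt19*), -0.15 to 0.37 (*Krt7*), -0.47 to 0.0023 (*Krt8*) and -0.071 to 0.34 (*Ovol1*), and no other member turned sign.

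The log2 difference of *Trp63* to *Grhl2* was -0.037 with a pseudocount of 2. With each library left out the ratio differences were -1.21 to -0.84 (*Krt5* to *Krt8*), -1.14 to -0.84 (*Krt14* to *Krt18*, -0.88 with an adjusted exact permutation p of 0.0635 without T2334), -0.77 to -0.13 (*Elf5* to *Foxa1*) and -0.070 to 0.084 (*Trp63* to *Grhl2*), and r of *Krt18* and *Krt14* was 0.605 (without T2334) to 0.857. Without the 3 libraries the keratin ratios differed by -0.98 and -1.11, both with an adjusted exact permutation p of 0.0571. Depth limits *Ovol1* most, with 15 reads in T2334. Titles share their last 3 digits across the diets in 4 pairs, whose meaning the labels do not give. Deviations from the diet means correlated by 0.298, -0.294, 0.111 and 0.41 within these pairs, so the endings were not taken as a pairing. With the ending as a replicate block (8 libraries), 26 members were lower at an unadjusted p below 0.05 (4.70% of all genes were) and 0 were called. In the same libraries without the block these counts were 4 (2.44% of all genes) and 0 (1 of all genes called). With the block the keratin ratios differed by -1.02 and -1.12, where 4 pairs allow no exact permutation p below 0.125 (adjusted p = 0.25). Signs turned for *Krt7* (-0.0998 with the block, -0.0926 without), *Ovol1* (-0.15 with), *Cldn4* (-0.10 with) and *Foxa1* (0.149 without), and *Trp63* to *Grhl2* was at -0.0334 with the block and -0.00473 with diets permuted within digits. These were added after the values had been seen.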
